A study of Mus musculus with 6 samples.

Results

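The genes described here encode the Atg8 proteins that coat autophagosomes and the cargo receptors that bind them. They were read in gastrocnemius muscle of adult male mice, 12 weeks old, on day 14 after a segment had been cut out of the sciatic nerve of the left leg (denervated, n = 3). The same muscle of the innervated right leg served as the control (n = 3). All 10 genes were chosen by name, with earlier results of these data known. Every probe annotated to one of them on an Illumina mouse bead array was used. Of the 25697 probes of the array, 12 belonged to 9 of the 10 genes. No probe was annotated to Optn, so optineurin was not analysed here. The 1 probe of Bnip3 was above background on 0 of the 6 arrays, which left 11 probes of 8 genes among the 8740 genes that could be tested. The sources used here gave neither the strain nor the number of mice, and the labels did not say that a replicate number marks a mouse, so p-values describe the scatter among these 6 samples, which may be technical. All 6 arrays lay on 1 chip with each group in its own stretch of positions, so position and group cannot be told apart.

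Autophagy encloses cytoplasm in a double membrane and delivers it to the lysosome. The Atg8 proteins, which form the LC3 and GABARAP subfamilies, are joined to a lipid of that membrane and recruit cargo receptors through a short motif of the receptor. Sqstm1 (p62), Nbr1 and Optn bind ubiquitin-tagged cargo, whereas Bnip3 and Bnip3l (Nix) sit on the outer membrane of mitochondria. In skeletal muscle, loss of the nerve leads to atrophy, in which the proteasome and autophagy both degrade protein. In mouse muscle the forkhead factor Foxo3 is known to act on Map1lc3b, Gabarapl1 and Bnip3, and in other mouse cells Nfe2l2 (Nrf2) is known to act on Sqstm1.

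Promoters of 8 of the 10 genes were found in RefSeq on GRCm38.p6, with 9 start sites because Nbr1 had 2. None was found for Map1lc3a or Bnip3l, so their promoters were not searched. Each window ran from 250 bases before to 50 bases after the start site. Motifs of 4 kinds were searched on both strands: the E-box CACGTG, the hypoxia element core ACGTG, which lies within the E-box, the forkhead element TGTTTAC and the antioxidant element TGACNNNGC. These were present in 7.15%, 19.6%, 3.65% and 12.4% of 32851 mouse promoters of the same length. Windows of 3 genes that rose after denervation (Sqstm1, Gabarap and Gabarapl1) are printed with that of Map1lc3b, which did not pass the test. Sequences run 5′ to 3′ on the strand of the gene, and capitals mark a match on either strand.
Sqstm1 (chr11:50210771-50211070, minus strand): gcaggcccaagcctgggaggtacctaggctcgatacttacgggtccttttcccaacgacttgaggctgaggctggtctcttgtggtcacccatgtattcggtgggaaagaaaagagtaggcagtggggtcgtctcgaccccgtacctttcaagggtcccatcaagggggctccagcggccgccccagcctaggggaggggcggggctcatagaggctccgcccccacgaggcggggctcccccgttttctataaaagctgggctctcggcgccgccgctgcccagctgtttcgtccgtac
Gabarap (chr11:69991120-69991419, plus strand): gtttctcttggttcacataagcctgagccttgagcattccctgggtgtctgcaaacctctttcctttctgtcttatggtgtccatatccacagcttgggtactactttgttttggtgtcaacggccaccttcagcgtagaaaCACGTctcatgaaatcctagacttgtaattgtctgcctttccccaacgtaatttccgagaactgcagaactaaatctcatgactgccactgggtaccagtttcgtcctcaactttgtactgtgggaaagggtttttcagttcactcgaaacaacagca
Gabarapl1 (chr6:129532942-129533241, plus strand): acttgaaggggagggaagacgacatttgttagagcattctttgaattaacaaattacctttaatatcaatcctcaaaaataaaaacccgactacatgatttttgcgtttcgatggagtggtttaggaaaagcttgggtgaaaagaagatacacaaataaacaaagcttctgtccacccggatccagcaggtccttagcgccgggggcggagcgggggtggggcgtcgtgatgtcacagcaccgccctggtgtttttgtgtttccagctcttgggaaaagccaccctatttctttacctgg
Map1lc3b (chr8:121590188-121590487, plus strand): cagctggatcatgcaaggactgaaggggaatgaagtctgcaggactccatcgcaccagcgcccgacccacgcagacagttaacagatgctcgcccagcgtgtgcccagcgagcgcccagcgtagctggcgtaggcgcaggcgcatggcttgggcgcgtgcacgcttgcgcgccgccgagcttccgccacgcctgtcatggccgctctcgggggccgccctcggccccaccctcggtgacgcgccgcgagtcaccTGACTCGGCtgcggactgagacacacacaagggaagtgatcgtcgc
The forkhead element, spelled as TGTTTAC, was found in 0 of the 9 windows. Other spellings of a forkhead site were not searched, so these windows may hold such sites. An antioxidant element lay 4 bases after the start site of Map1lc3b, and the window of Gabarap held the hypoxia core 108 bases before its start. None of the 4 motifs, as spelled above, was found in the windows of Sqstm1 or Gabarapl1. The same hypoxia core was found in the windows of Gabarapl2 and Bnip3 and in 1 of the 2 windows of Nbr1, and Bnip3 held the only E-box among the 9 windows. A match describes these letters and is not a measured binding site.

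After denervation, 5 of the 8 tested genes rose (Map1lc3a, Sqstm1, Nbr1, Gabarapl1 and Gabarap), 1 fell (Bnip3l) and 2 did not pass the test (Map1lc3b and Gabarapl2). The limma fit covered every probe that passed the filter, and a gene was called at a Benjamini-Hochberg adjusted p under 0.05. Many other genes moved as well: 22.2% of all tested genes were called higher and 21.6% were called lower. The median log2 fold change, denervated minus control, was 0.53 over the 8 genes and -0.0033 over all 8740. The 3 denervated values lay above all 3 control values in 5 of the 8 genes, the same 5 that rose, against 28.2% of all tested genes. Only Map1lc3a rose by more than 2-fold, on its brighter probe, while its other probe gave 1.39-fold. Gene values here come from the brighter probe of each gene, and the 2 probes of Nbr1 had nearly the same mean signal, so that the count of rises was 4 where its other probe stood for it. Levels below are normalized log2 signals in the order of replicates 1, 2 and 3, and a level is not compared between probes.

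**Figure D1:**
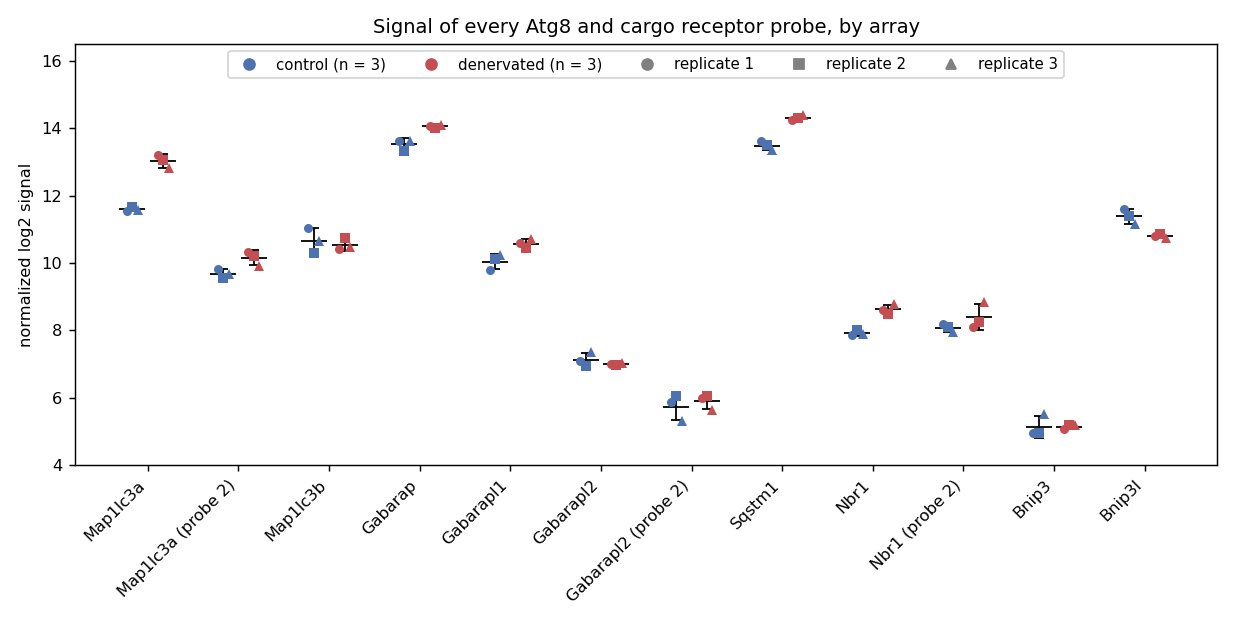
Normalized log2 signal (vertical axis) of the 12 probes on the 3 control and 3 denervated arrays. Each point is 1 array, its shape gives the replicate number, and the bar and whiskers are the mean and SD of a group. The groups lie farthest apart for the brighter Map1lc3a probe and overlap for Map1lc3b, both Gabarapl2 probes and the second Nbr1 probe; Bnip3 was above background on no array.

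Within the LC3 subfamily, Map1lc3a and Map1lc3b differed in their values. Map1lc3a encodes LC3A, and its brighter probe (ILMN_2832682) read 13.22, 13.07 and 12.80 in denervated muscle and 11.55, 11.67 and 11.56 in control muscle. All denervated arrays lay above all control arrays, by more than 1 log2 unit. The log2 fold change was 1.44 ± 0.13 (SE, n = 3 per group; 95% interval 1.13 to 1.74; limma adjusted p = 6.3e-05), or 2.71-fold, and 2.77% of all tested genes rose by more. As deposited, before normalization, the intensities were 11232, 10085 and 8429 against 2603, 2815 and 2689. The second probe (ILMN_2686183), annotated to the same transcript, read 10.33, 10.21 and 9.91 against 9.82, 9.56 and 9.66. The groups did not overlap on this probe either, but denervated replicate 3 lay close to control replicate 1. Its log2 fold change was 0.47 ± 0.14 (SE; 95% interval 0.14 to 0.80; limma adjusted p = 0.0282). The 95% intervals of the 2 probes do not overlap, and the difference between the probes was not tested. Without denervated replicate 1 the adjusted p of the second probe was 0.0997 and without replicate 2 it was 0.0913, whereas without control replicates 2 and 3 it was 0.0866 and 0.0663.

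Map1lc3b encodes LC3B, the form most often followed as an autophagosome marker. Its single probe read 10.42, 10.73 and 10.46 in denervated muscle and 11.03, 10.30 and 10.67 in control muscle. The groups overlapped, and control replicates 1 and 2 were the highest and the lowest of the 6 values. The log2 fold change was -0.13 ± 0.19 (SE; 95% interval -0.56 to 0.30; limma adjusted p = 0.621). The interval allows a rise of up to 0.30 or a fall to -0.56 on this probe. Without control replicate 1 the value was 0.06. The difference in change between Map1lc3a and Map1lc3b was not tested.

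In the GABARAP subfamily, Gabarap and Gabarapl1 rose and Gabarapl2 did not pass the test. Gabarap, first known as a protein associated with the GABA type A receptor, read 14.05, 14.01 and 14.09 in denervated muscle and 13.63, 13.34 and 13.62 in control muscle. The denervated arrays were within 0.1 of each other and all lay above the control arrays. The log2 fold change was 0.52 ± 0.12 (SE; 95% interval 0.24 to 0.80; limma adjusted p = 0.00871), or 1.44-fold. Gabarapl1 read 10.59, 10.43 and 10.70 against 9.79, 10.10 and 10.22. The smallest gap between the groups, denervated replicate 2 against control replicate 3, was narrower than the range of the controls. The log2 fold change was 0.54 ± 0.14 (SE; 95% interval 0.21 to 0.87; limma adjusted p = 0.0162). Without denervated replicate 3 it was 0.48, with an adjusted p of 0.0523. Of all tested genes, 16.9% rose by more than Gabarap and 16.3% by more than Gabarapl1.

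Gabarapl2 encodes GATE-16, a member of the same subfamily. Its brighter probe (ILMN_1219431) read 7.00, 6.97 and 7.02 in denervated muscle and 7.07, 6.94 and 7.35 in control muscle. The denervated values lay inside the range of the controls, and the log2 fold change was -0.12 ± 0.13 (SE; 95% interval -0.42 to 0.18; limma adjusted p = 0.489). As deposited, the same probe gave 267, 252 and 278 against 225, 207 and 246, with no overlap, so the order of the groups on this probe depended on the normalization. The other probe (ILMN_2642197) was above background on 2 denervated arrays and 1 control array only. It gave a log2 fold change of 0.15 ± 0.21 (SE; 95% interval -0.31 to 0.62; limma adjusted p = 0.58).

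Of the ubiquitin-binding members, Sqstm1 rose on its only probe and Nbr1 on 1 of 2 probes. Sqstm1 encodes p62, which gathers ubiquitin-tagged protein and is itself degraded with it. Its probe read 14.24, 14.30 and 14.39 in denervated muscle and 13.61, 13.49 and 13.35 in control muscle. Every denervated array lay above every control array, and the gap between the groups was larger than the range within either. The log2 fold change was 0.83 ± 0.12 (SE; 95% interval 0.56 to 1.10; limma adjusted p = 0.000674), or 1.78-fold, and 8.65% of all tested genes rose by more. As deposited, the intensities were 21718, 22799 and 23444 against 10597, 9779 and 9476.

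Nbr1 is a relative of p62 that binds ubiquitin and Atg8 proteins and, in muscle, interacts with the kinase domain of titin. The brighter probe by a small margin (ILMN_2664797) read 8.60, 8.48 and 8.77 in denervated muscle and 7.85, 8.00 and 7.90 in control muscle. The groups did not overlap, and the log2 fold change was 0.70 ± 0.12 (SE; 95% interval 0.43 to 0.98; limma adjusted p = 0.00188), or 1.63-fold. The other probe (ILMN_1220889) read 8.11, 8.26 and 8.84 against 8.18, 8.11 and 7.94. Here only denervated replicate 3 stood well above the controls. Its log2 fold change was 0.33 ± 0.19 (SE; 95% interval -0.10 to 0.76; limma adjusted p = 0.195). The rise of Nbr1 therefore rests on 1 of its 2 probes.

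**Figure D2:**
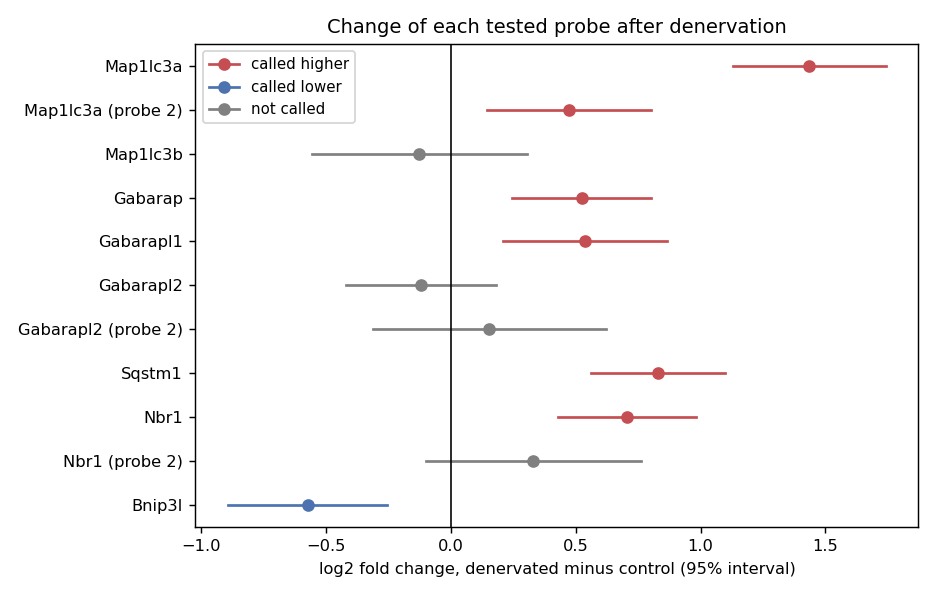
Log2 fold change, denervated minus control (horizontal axis), of the 11 probes that passed the filter, with the 95% interval of the limma fit (3 denervated and 3 control arrays). Red probes were called higher, the blue probe was called lower and grey probes were not called; Map1lc3a had the largest change, 1.44, and Bnip3l the only fall past the threshold, -0.57.

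Of the members Bnip3 and Bnip3l, only Bnip3l could be tested. It encodes Nix, which recruits Atg8 proteins to mitochondria and is known for clearing mitochondria from maturing red blood cells. After normalization its probe read 10.81, 10.86 and 10.74 in denervated muscle and 11.61, 11.38 and 11.14 in control muscle. The denervated arrays all lay below the control arrays, and the log2 fold change was -0.57 ± 0.14 (SE; 95% interval -0.89 to -0.26; limma adjusted p = 0.0102), or 0.671-fold. As deposited, the intensities were 2235, 2242 and 2116 against 2703, 2326 and 2060, so that the groups overlapped and the ratio of their means was 0.93. The fall was thus a fall relative to the other genes of the array. Each array was also scaled by 1 median in place of quantile normalization. With the median over all probes, the log2 fold change was -0.35 (limma adjusted p = 0.0652), and the call was lost. With the median over probes detected on all 6 arrays, it was -0.62 (limma adjusted p = 0.00686), and the call was kept.

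The summed level of 3 erythrocyte markers (Alas2, Hba-a1 and Slc4a1) was 45228, 71382 and 25143 in denervated muscle and 70919, 71846 and 65719 in control muscle. Most of that sum was Hba-a1, an abundant globin transcript. Alas2, the enzyme of heme synthesis in red blood cells, read 9.80, 10.79 and 8.34 in denervated muscle and 11.70, 11.53 and 10.67 in control muscle, and fell by 1.66 ± 0.54 on the log2 scale (SE; limma adjusted p = 0.0353). The groups overlapped for Alas2. The part of red blood cells in the lower Bnip3l level was not tested. Bnip3, the relative of Nix that is known as a target of hypoxia signaling, gave deposited intensities of 135, 138 and 153 in denervated muscle and 124, 116 and 143 in control muscle. These were not well above background on any array, and no fold is given.

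**Figure D3:**
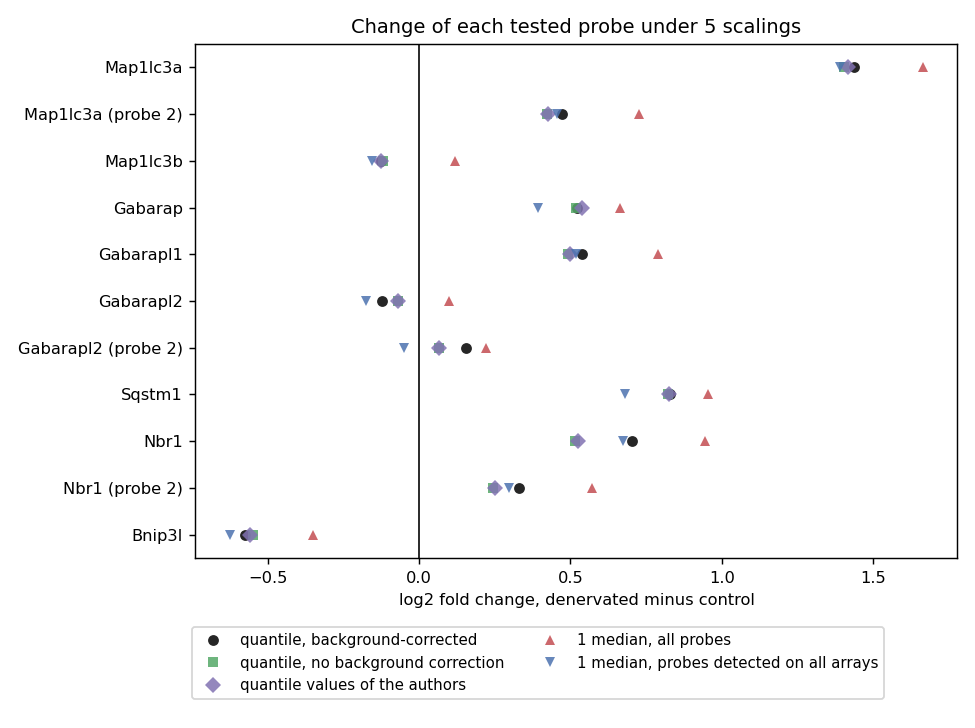
Log2 fold change, denervated minus control (horizontal axis), of the 11 tested probes under 5 ways of scaling the arrays, each point from 3 denervated and 3 control arrays. Scaling by 1 median over all probes moved every probe toward higher values, turned Map1lc3b and the brighter Gabarapl2 probe to above 0 and left Bnip3l at -0.35; the probes of the 5 genes that rose stayed above 0 under all 5.

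The control and denervated arrays differed in the spread of their deposited intensities, which bears on all small changes. The 95th percentile was 4000 to 4048 on denervated arrays and 2896 to 3022 on control arrays, while 11551 to 12785 probes per array were above background. After normalization, arrays correlated at 0.988 to 0.994 within a group and at 0.937 to 0.941 between groups (Pearson, log2 signal, across probes that passed the filter). With 1 median per array the median gene had a log2 fold change of 0.20 and 73.2% of the calls were rises, against 50.6% after quantile normalization. The share was 43.9% when that median was taken over probes detected on every array. The 5 genes that rose were called higher under each of these scalings. The 11 tested member probes were each read by 26 to 59 beads per array, with a standard error over beads of 3.93% to 12.3% of the signal.

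Whole muscle was measured, so fewer cells of a type and less RNA per cell cannot be told apart. All 8 muscle fiber markers were detected on all arrays, and 0 of 8 were called; several were near the ceiling of the scanner. All 10 macrophage markers tested of 12 rose (median log2 fold change 1.29), and their summed level was 9847 to 12693 in denervated muscle against 4161 to 4711 in control muscle. Of 7 endothelial markers tested, 6 fell, with a summed level of 8454 to 9169 against 10780 to 14182. On the brightest probe of each gene, the 3 Schwann cell markers tested had the largest changes of these lists. The myelin gene Mbp fell by 2.62 ± 0.36 and the myelin gene Pmp22 fell by 2.10 ± 0.28 (SE, log2 scale). The other Mbp probes had changes of opposite sign to each other, so the direction for Mbp depended on the probe. Pmp22 gave -1.66 on its other probe. Ngfr, a receptor of Schwann cells without axon contact, rose by 3.62 ± 0.22 (SE, log2 scale). The summed level of the Schwann cell markers was 2602 to 3200 against 5320 to 12793. Of 3 adipocyte markers tested, 1 fell (summed level 1043 to 2765 against 2181 to 3978), and of 5 fibroblast markers 2 rose and 1 fell (34022 to 38704 against 32163 to 37276). No probe was annotated to the macrophage markers Cd68 and Csf1r, and Kdr of the endothelial list and Plin1 and Retn of the adipocyte list were above background on no array. The part of these cell types in the changes of Sqstm1, Map1lc3a and the other members was not tested.

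Among 12 other tested cargo receptors and adaptors, 5 rose, 1 fell and 6 did not pass, with a median log2 fold change of 0.31. Array-wide, 22.2% of tested genes rose and 21.6% fell. Stbd1, a receptor that binds glycogen, read 13.01, 12.79 and 12.97 in denervated muscle and 11.30, 11.01 and 10.89 in control muscle. Its rise of 1.86 ± 0.14 on the log2 scale (SE; limma adjusted p = 1.7e-05) was larger than that of any member. Tax1bp1, a ubiquitin-binding receptor, rose by 0.63 ± 0.16, and Tex264, a receptor on the endoplasmic reticulum, by 0.47 ± 0.11, with 0.18 on its other probe. Fundc1, a mitochondrial receptor, fell by 0.73 ± 0.11 on the log2 scale, reading 10.53, 10.55 and 10.54 against 11.27, 11.21 and 11.33. Bcl2l13, another mitochondrial receptor, was named after its values were seen and rose by 0.43 ± 0.13. The count of rises in this list was 3 without any 1 of the denervated arrays and without control replicate 1 or 2.

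Of 8 tested genes of the machinery that joins Atg8 proteins to membrane, 3 rose, 2 fell and 3 did not pass, with a median log2 fold change of 0.09. Over all tested genes, 22.2% rose and 21.6% fell. Atg7, the E1-like enzyme of both conjugation steps, rose by 0.68 ± 0.15 (SE), from 6.61, 6.51 and 6.31 in control muscle to 6.88, 7.27 and 7.31. Atg12, which is joined to Atg5, rose by 0.37 ± 0.12. Atg10, the E2-like enzyme for Atg12, fell by 0.56 ± 0.11 and Atg4d, a protease that processes Atg8 proteins, fell by 0.61 ± 0.12 (limma adjusted p at most 0.0320 for the 4 genes). The Atg4d probe was dim, reading 5.63, 5.74 and 5.90 in denervated muscle and 6.41, 6.26 and 6.42 in control muscle. With a detection p-value under 0.01 required on 3 arrays, the list had 6 tested genes and 1 fall. The count of rises was 1 without any 1 of the denervated arrays and without control replicate 2.

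Of 16 tested genes of initiation and membrane nucleation, 4 rose, 3 fell and 9 did not pass (median 0.14), beside 22.2% higher and 21.6% lower over all tested genes. When each array was scaled by 1 median over all probes, 8 rose and 2 fell. With the median over probes detected on all 6 arrays, 4 rose and 3 fell. Wipi1, which binds phosphoinositide on the forming membrane, rose by 0.64 ± 0.11 and Uvrag, a partner of beclin, by 0.62 ± 0.13, whereas the kinase Ulk2 fell by 0.74 ± 0.16 and Atg101, a subunit of the Ulk complex, by 0.66 ± 0.13. Of 11 tested genes of fusion with the lysosome, 2 rose, 2 fell and 7 did not pass (median 0.01). With 1 median over all probes 4 rose and 2 fell, and with the median over detected probes 2 rose and 2 fell. The SNARE protein Stx17 rose by 0.69 ± 0.12 and the adaptor Plekhm1 by 0.74 ± 0.15, with -0.05 on its other probe. The small GTPase Rab7 fell by 1.12 ± 0.12, from 13.19, 13.14 and 13.07 to 12.07, 11.85 and 12.12, and the SNARE protein Vamp8 fell by 0.67 ± 0.11.

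**Figure D4:**
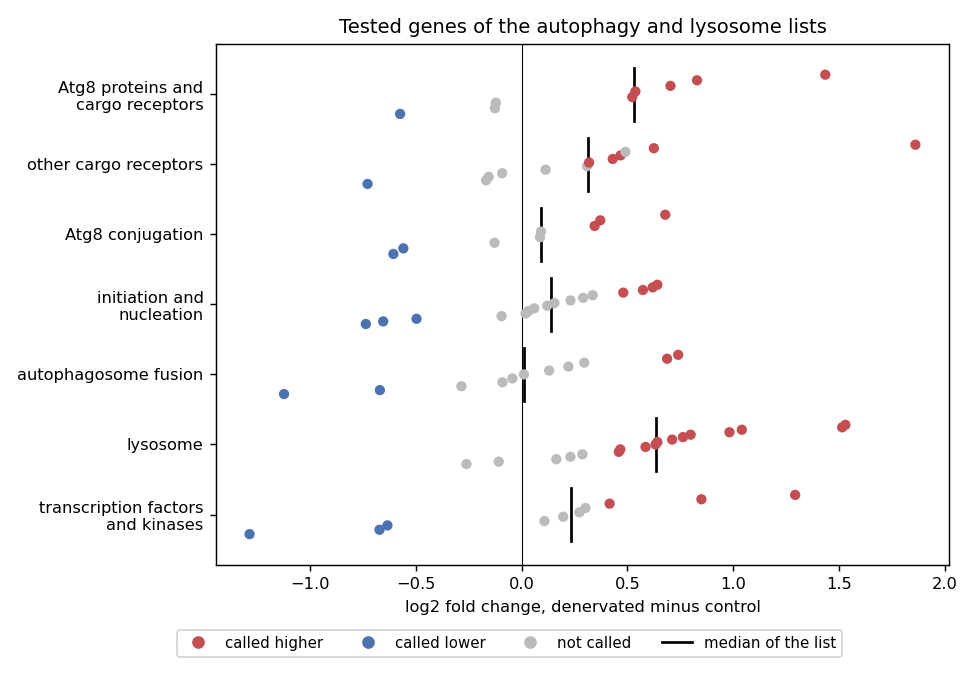
Log2 fold change, denervated minus control (horizontal axis), of each tested gene in 7 lists (3 denervated and 3 control arrays). Red points were called higher, blue points lower and grey points were not called, and the black line is the median of a list; the lysosome list has the highest median, 0.63, with 12 rises and 0 falls.

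Of 17 tested lysosomal genes, 12 rose, 0 fell and 5 did not pass, with a median log2 fold change of 0.63. Array-wide, 22.2% of tested genes rose and 21.6% fell. Ctsl, a cysteine protease of the lysosome, read 8.63, 8.50 and 8.54 in denervated muscle and 6.67, 7.34 and 7.06 in control muscle, a rise of 1.53 ± 0.17 (SE). Atp6v1a, the catalytic subunit of the proton pump, rose by 1.52 ± 0.19. The glycosidases Gusb and Hexa rose by 1.04 ± 0.18 and 0.98 ± 0.13. The adjusted p of these 4 genes in the limma fit was at most 0.00199. Macrophages also carry many lysosomal enzymes, and the macrophage sums given above moved with this list; their part in it was not tested.

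The list of transcription factors and kinases that act on the members had 10 tested genes. Of these, 3 rose, 3 fell and 4 did not pass (median 0.23). The list also held Keap1, which is neither and was not called. The shares over all tested genes were 22.2% higher and 21.6% lower. Nfe2l2 read 8.52, 8.42 and 8.45 in denervated muscle and 7.21, 6.89 and 7.41 in control muscle, a rise of 1.29 ± 0.15 (SE; limma adjusted p = 0.000188). Foxo1 rose by 0.85 ± 0.16, while the 1 probe of Foxo3 did not pass the filter. Prkaa2, the catalytic subunit of AMP-activated kinase that prevails in muscle, fell by 1.29 ± 0.24, and Pink1, the kinase that marks damaged mitochondria, fell by 0.67 ± 0.12. Named after the values were seen, Tbk1, a kinase that phosphorylates p62 and optineurin, rose by 0.42 ± 0.11 and Tfeb, a transcription factor for lysosomal and autophagy genes, fell by 0.63 ± 0.14. For reference on the other route of degradation, all 4 tested ubiquitin ligase and proteasome genes rose (median 1.38). Trim63, the muscle ligase MuRF1, rose most among them, by 2.21 ± 0.13.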

How the data were processed

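Per the study's methods, ribosomal RNA was removed, and biotin-labelled cRNA was hybridized to MouseRef-8 bead arrays and summarized in GenomeStudio. The deposited table held, per the file headers, a signal intensity for each probe that was neither background-subtracted nor normalized, with its bead standard error, bead number and a detection p-value from the authors' software. The authors' quantile-normalized intensity values served as an alternative. Columns left out numbered 0.

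Intensities were background-corrected from the detection p-values (normal-exponential model, offset 16), quantile-normalized and log2-transformed in limma 3.58.1 (R 4.3.3). Probes with a detection p-value under 0.05 on at least 3 of 6 arrays were kept (12546 probes). The fit was lmFit and eBayes, two-sided, with Benjamini-Hochberg adjustment over all kept probes, and was tested on simulated data. The brightest kept probe stood for a gene. Symbols came from the platform annotation; 23962 probes matched RefSeq (GRCm38.p6), and 0 symbols changed. The offset makes fold changes of dim probes too small, and the number of arrays limits the precision: an exact permutation test of 3 against 3 cannot go below p = 0.1, so none is given.

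The members and lists were chosen with earlier results of these data known. All members were named, and from each pathway list up to 4 called genes with the largest changes and no overlap between groups. The alternatives were other background corrections, scalings, filters, moderation, the replicate block, the mean over probes, a t-test and leaving out each array. For the arrays, the study's methods give a p-value threshold but name no test.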

Additional observations from a re-analysis of the deposited data

How the results depend on the processing

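The 5 rises and 1 fall among the members were counted again under each alternative. The number of rises was 4 to 5 and the number of falls 1. The exception was scaling by 1 median over all probes, where 0 genes fell and Bnip3l was at -0.35. Without single arrays the rises numbered 4 to 5, since Gabarapl1 lost its call without denervated replicate 3, and without denervated replicate 1 or 2 the other Nbr1 probe became the brighter one. Gabarapl1 also missed the threshold in a t-test without moderation after Benjamini-Hochberg adjustment (adjusted p = 0.0627). That t-test called 4 genes higher against 5 before adjustment. Over all alternatives the log2 fold change was 0.95 to 1.66 for the brighter Map1lc3a probe, whose lowest value is the mean of both probes, 0.68 to 0.95 for Sqstm1, 0.39 to 0.67 for Gabarap, 0.41 to 0.79 for Gabarapl1, 0.52 to 0.95 for the brighter Nbr1 probe and -0.69 to -0.35 for Bnip3l. The other Nbr1 probe was called with 1 median per array over all probes (0.57, limma adjusted p = 0.0189). The values of Map1lc3b and Gabarapl2, which were not called, changed sign with the scaling. With the replicate block, 5 members rose and 1 fell. Same-numbered arrays correlated at -0.0167, 0.161 and 0.164 in their deviations from the group means, and unlike-numbered arrays at -0.235 to 0.132. The highest values, 0.161 and 0.164, were thus same-numbered. With 3 arrays per group these values cannot decide whether a number marks a pair of legs. The labels do not say so either, and the block was kept as an alternative only. Of 266 counts for the other lists, 250 stayed within 1.5 times. With 1 median per array over all probes, the rises were 8 against 4 for initiation and 4 against 2 for fusion. They were 5 against 3 for transcription factors and kinases, and conjugation had 1 fall against 2. Conjugation had 1 rise against 3 with the replicate block and 1 fall against 2 with a detection p-value under 0.01, and fusion had 1 rise against 2 with the mean over probes. The cause of these shifts was not tested.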
